A study of Mus musculus with 8 samples.

Results

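The 9 transcription factors of the enteroendocrine lineage listed here were examined in sorted tuft cells of the mouse small intestine, namely Neurog3, Neurod1, Insm1, Fev, Lmx1a, Pax4, Pax6, Isl1 and Nkx2-2. They were chosen by name, as the rows of the deposited count table that carry these 9 symbols out of 35199 genes, and all 9 were listed. The first 3 were treated as early factors and the other 6 as late and subtype factors. All mice carried the Dclk1-DTR-ZSgreen transgene, a bacterial artificial chromosome on which Dclk1 regulatory sequence drives a diphtheria toxin receptor and the ZSgreen reporter, so a cell was collected because this transgene was active in it. The mice, aged 8 to 10 weeks, carried osmotic pumps for 7 days that delivered scopolamine, a blocker of all muscarinic acetylcholine receptors, at 0.5 mg per kg per day (4 mice, replicates 1 to 4) or sodium chloride (sham, 4 mice, replicates 5 to 8). Live epithelial ZSgreen-positive cells of the jejunum, 3000 for replicates 1 and 5 and 4000 for the others, gave 1 RNA-seq library per mouse. The question put to these genes was whether tuft cells under muscarinic blockade carry the regulators of endocrine fate as well as its products.

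Enteroendocrine cells are the hormone-secreting cells of the gut epithelium and descend, like tuft cells, from crypt stem cells. Neurog3, a basic helix-loop-helix factor switched on briefly in secretory progenitors, commits a cell to the endocrine fate, and Neurod1 and Insm1 act after it as the cell leaves the cycle and begins to differentiate. Later factors then steer the cell toward one hormone or another, with Lmx1a and Fev acting in serotonin-producing enterochromaffin cells and Isl1, Pax6, Pax4 and Nkx2-2 needed for various endocrine cells. Mature tuft cells depend on another factor, Pou2f3.

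The stretches just upstream of the annotated start sites are shown for the 3 factors on which the group comparison turned, the early factor Neurog3, the enterochromaffin factor Lmx1a and the LIM homeodomain factor Isl1. Each ends at or 1 base before the RefSeq start site (build GRCm38.p6), and capitals mark the letters CANNTG, the E-box core that helix-loop-helix factors such as Neurog3 and Neurod1 can bind.
Neurog3 (chr10:62132840-62133089, plus strand): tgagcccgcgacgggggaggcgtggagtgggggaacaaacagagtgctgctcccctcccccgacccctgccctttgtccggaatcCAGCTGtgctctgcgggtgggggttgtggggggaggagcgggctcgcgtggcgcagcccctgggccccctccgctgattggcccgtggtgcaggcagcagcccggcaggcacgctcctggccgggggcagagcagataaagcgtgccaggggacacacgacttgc
Lmx1a (chr1:167689308-167689556, plus strand): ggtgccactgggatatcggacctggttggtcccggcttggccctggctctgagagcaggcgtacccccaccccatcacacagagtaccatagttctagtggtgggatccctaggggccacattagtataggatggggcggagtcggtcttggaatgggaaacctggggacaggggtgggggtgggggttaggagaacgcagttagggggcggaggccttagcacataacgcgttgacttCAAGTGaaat
Isl1 (chr13:116309690-116309938, minus strand): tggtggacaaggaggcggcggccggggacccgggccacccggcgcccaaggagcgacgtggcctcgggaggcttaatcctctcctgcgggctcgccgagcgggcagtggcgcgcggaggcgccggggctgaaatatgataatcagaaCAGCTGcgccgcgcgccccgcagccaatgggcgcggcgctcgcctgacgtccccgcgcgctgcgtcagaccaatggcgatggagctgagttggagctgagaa
Each of these stretches held 1 CANNTG, as CAGCTG 165 bases before the start site of Neurog3 and 103 before that of Isl1, and as CAAGTG 11 bases before that of Lmx1a. Those letters occur in 66.2% of the 250-base stretches upstream of 32851 RefSeq start sites, which makes a match common among all genes. Searched on both strands, none of the 3 held CAGATG (14.4% of all stretches), TAATTA (4.84%) or AAGTGG (14.1%, which can overlap an E-box by some letters). The Lmx1a stretch lies inside the longest annotated gene model, whose start is further upstream. Insm1 and Pax4 were not in the promoter table, and 7 of the 9 genes matched it.

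The 9 genes lie on 5 chromosomes of GRCm38 and are all protein-coding. Neurog3 is a gene with 1 exon block on chromosome 10 (62133090 to 62134763) and overlaps Fam241b on the opposite strand over 273 exonic bases. Lmx1a lies on chromosome 1 (167689237 to 167848741, 9 exon blocks), as does Fev (74881509 to 74885419). Neurod1 (79452521 to 79456751), Insm1 (146221921 to 146225020), Pax6 (105668900 to 105697364) and Nkx2-2 (147177546 to 147194243) lie on chromosome 2, Pax4 on chromosome 6 (28442334 to 28449353) and Isl1 on chromosome 13 (116298281 to 116309689). The use of strand in the counting is not stated, so reads over a shared stretch cannot be assigned to one gene. Fam241b had 398 to 2092 counts in every library, including the 5 in which Neurog3 had 0.

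The libraries held between 14343362 and 41428916 counts. Depth did not overlap between the groups, with at most 20857433 counts in a treated mouse and at least 25769940 in a sham mouse, so an effect of depth cannot be told apart from one of scopolamine. The sham replicates 5 and 7 were amplified from 200 pg of RNA with 15 cycles, and the other 6 libraries from 1000 pg with 10 cycles. Levels are given as CPM, counts per 1000000 after TMM scaling of the library sizes. A floor of 3 counts, used as the limit of detection, corresponds to 0.0739 to 0.21 CPM. Floors and counting intervals cover counting error only, because amplified copies were not told apart by molecular identifiers. The 20 tuft markers summed to 37964 to 62530 CPM with scopolamine and 46899 to 55786 CPM in sham, and all 20 were above the floor in every library. The 9 endocrine factors summed to between 1.01 and 32 CPM.

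Per kilobase of exon, the endocrine factors were low in these cells. Averaged over the 8 libraries, Neurod1 had the highest level, 1.23 CPM per kilobase, followed by Fev with 1.15, Lmx1a with 0.605 and Insm1 with 0.472. Isl1 (0.376) and Neurog3 (0.374) came next, and Nkx2-2 (0.138), Pax6 (0.0869) and Pax4 (0.0282) were lowest. The order differed by group, with Fev (2.17 CPM per kilobase) above Neurod1 (1.78) and Lmx1a (1.2) in the treated mice, and Isl1 (0.683) and Neurod1 (0.682) above Fev (0.141) in the sham mice. Pou2f3, the tuft cell factor, stood at 121.7 CPM per kilobase, which is 99-fold the level of Neurod1. Among 21664 genes with a count and an annotated length, Neurod1 lay above 56.3% and Pax4 above 17.7%. The SD over the 8 libraries was 1.13 CPM per kilobase for Neurod1, 2.03 for Fev, 0.935 for Lmx1a and 0.757 for Insm1, and between 0.0701 (Pax6) and 0.952 (Isl1) for the others. Each gap between neighbours in this order was smaller than the SD of either gene, so no pair of neighbours differed beyond the spread between mice.

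Between the groups, Lmx1a and Neurog3 had the widest differences in fold, with hardly a count in sham, and Isl1 went the other way through 1 sham mouse. With edgeR's quasi-likelihood test over 17678 genes, 0 of the 8 endocrine factors tested had a Benjamini-Hochberg adjusted p under 0.1, as did 0 of all genes (0%). Pax4, with 7 counts in all, was under the minimum of 10 counts and was not tested. At an unadjusted p under 0.05, 3 of the 8 (Neurog3, Insm1 and Lmx1a) were higher with scopolamine and 0 lower, where 5.5% of all genes were higher and 2.94% lower. DESeq2, the tool the study used, called 1 of the 8 (Lmx1a) at an adjusted p under 0.1, against 0.605% of all genes higher with scopolamine and 0.769% in either direction. The log2 fold change was positive for 7 of the 8 and for 49.8% of all genes, and its median was 1.95 over the 8 and -0.0028 over all genes. Without scopolamine replicate 2 the median over the 8 was 1.12 with 5 positive, without sham replicate 7 it was 3.93 with 8 positive, and without sham replicate 8 it was 3.12 with 7 positive. Every tested member had passed a filter on the summed count, and Neurog3 and Lmx1a passed it through the scopolamine libraries, so these counts and the median describe the list and do not test it. In bulk libraries a change in the number of cells that express a gene and a change in its RNA per cell cannot be told apart.

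**Figure D1:**
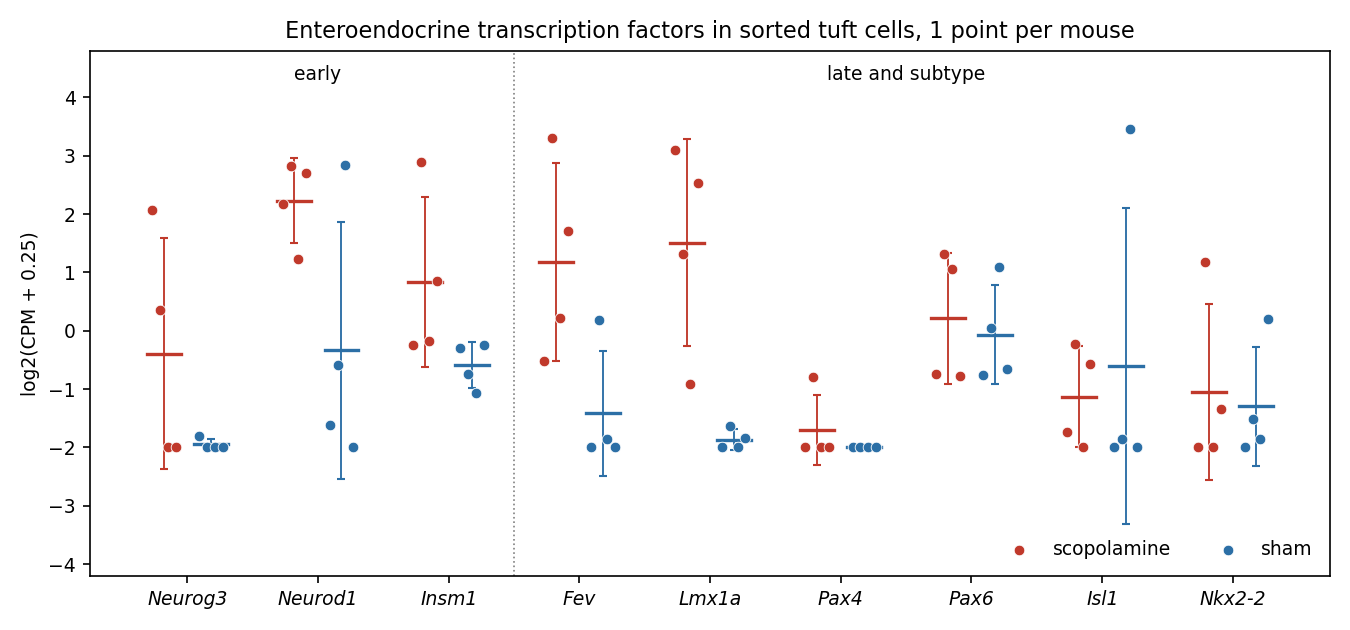
Level of each factor in each library as log2(CPM + 0.25), with 1 point per mouse, scopolamine in red and sham in blue (horizontal bars, mean; whiskers, SD; n = 4 per group; a value of -2 is a count of 0). Lmx1a and Insm1 do not overlap between the groups, the latter by the narrowest of margins, and the highest Isl1 and Neurod1 points are the same sham mouse, replicate 7.

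Among the early factors, Neurog3 had counts of 79, 22, 0 and 0 in scopolamine replicates 1 to 4 and 1, 0, 0 and 0 in sham replicates 5 to 8. It was present in 2 of the 4 treated mice and above the floor in none of the sham mice, and the groups overlapped at 0. Its level was 1.24 ± 1.86 CPM in the treated mice and 0.00939 ± 0.0188 CPM in the sham mice (SD, n = 4 each), and scopolamine replicate 1 held 78.7% of the summed level. The edgeR log2 fold change was 6.62 (standard error 2.23, unadjusted p = 0.0135, Benjamini-Hochberg adjusted p = 0.591), a value that depends on the prior count because sham had 1 count in all. Pooled over the libraries, 101 counts against 1 gave a ratio of 185 with a 95% exact counting interval from 32.5 to 7382, which does not cover the spread between mice. An exact permutation test of log2(CPM + 0.25) over the 70 assignments gave p = 0.429 (two-sided). With the letter of the mouse ID as a covariate, the log2 fold change of Neurog3 was 3.89 (edgeR, unadjusted p = 0.207), and both mice above the floor belonged to the M series. It was 4.8 without scopolamine replicate 1 (edgeR, unadjusted p = 0.0477), 8.09 without sham replicate 5 (unadjusted p = 0.0243) and 3.70 in limma-voom (unadjusted p = 0.0506).

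Neurod1, the helix-loop-helix factor that follows Neurog3, had counts of 85, 146, 30 and 132 with scopolamine and 2, 17, 278 and 0 in sham. All 4 treated mice had it above the floor, while the sham mice ranged from none to the highest count of all, in replicate 7. The level was 4.85 ± 2.14 CPM in the treated mice and 1.86 ± 3.4 CPM in the sham mice (SD, n = 4 each). The log2 fold change was 1.38 (standard error 1.47, edgeR Benjamini-Hochberg adjusted p = 0.874; exact permutation test, two-sided, p = 0.143). Its size depended on sham replicate 7 and on the method. Without that mouse the log2 fold change was 4.83 (edgeR, unadjusted p = 0.00495, Benjamini-Hochberg adjusted p = 0.661), and DESeq2 then gave an adjusted p of 0.00171. With all 8 mice it was 4.14 in limma-voom (unadjusted p = 0.0129, adjusted p = 0.62) and 3.37 with the letter of the mouse ID in the edgeR fit (unadjusted p = 0.204). Neurod1 shares 201 exonic bases with Cerkl on the same strand, a gene with 0 to 12 counts per library.

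Insm1, a zinc-finger repressor that marks differentiating endocrine cells, was the early factor found above the floor in all 8 libraries. Its counts were 12, 154, 9 and 33 with scopolamine and 15, 14, 9 and 20 in sham. After scaling to depth, the treated mice lay at 0.598, 7.18, 0.631 and 1.56 CPM and the sham mice at 0.563, 0.345, 0.225 and 0.595 CPM. Treated and sham mice did not overlap, and a two-sided exact permutation test gave p = 0.0286, the lowest value open to groups of 4, but scopolamine replicate 1 and sham replicate 8 were 0.598 and 0.595 CPM, and after thinning every library to the smallest total the groups overlapped. The log2 fold change was 2.52 (standard error 1.09, unadjusted p = 0.0423, edgeR Benjamini-Hochberg adjusted p = 0.591), and without scopolamine replicate 2 it was 1.08 (unadjusted p = 0.343).

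Of the enterochromaffin factors, Lmx1a had counts of 166, 48, 4 and 117 with scopolamine and 0, 3, 0 and 1 in sham. Every treated mouse was above the floor of 3 counts and every sham mouse was at or below it, so the groups did not overlap, as in 1.68% of all genes on the side of scopolamine and 1.71% on the side of sham. The margin was 4 counts (0.281 CPM) in scopolamine replicate 3 against 3 counts (0.0739 CPM) in sham replicate 6. The mean was 4.08 ± 3.54 CPM in the treated mice and 0.0259 ± 0.0349 CPM in the sham mice (SD, n = 4 each). Its log2 fold change was 7.02 (standard error 1.53) in edgeR, with an unadjusted p of 8.66e-04 and a Benjamini-Hochberg adjusted p of 0.591, and 7.26 (standard error 1.35) in DESeq2, with a Benjamini-Hochberg adjusted p of 1.41e-04. The exact permutation test gave the smallest p possible, 0.0286 (two-sided). Within the M series of mouse IDs Lmx1a stood at 3.60 CPM in 3 treated mice and 0 in 1 sham mouse, and within the N series at 5.54 CPM in 1 treated mouse and 0.0346 CPM in 3 sham mice. Among the 6 libraries made from 1000 pg the log2 fold change was 6.15 (edgeR, unadjusted p = 0.00519, Benjamini-Hochberg adjusted p = 0.503). The sham libraries, although deeper, held 4 counts of Lmx1a in all against 335 with scopolamine, a pooled ratio of 153 with a counting interval from 59.4 to 567.

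Fev, an ETS factor best known from serotonin neurons, had counts of 9, 206, 13 and 64 with scopolamine and 0, 36, 1 and 0 in sham. It was above the floor in all 4 treated mice and in sham replicate 6, which at 0.887 CPM exceeded scopolamine replicate 1 at 0.449 CPM. The means were 3.5 ± 4.23 CPM with scopolamine and 0.228 ± 0.439 CPM in sham (SD, n = 4 each). The log2 fold change was 3.90 (standard error 1.77, edgeR unadjusted p = 0.0506, Benjamini-Hochberg adjusted p = 0.593), and the exact permutation test gave p = 0.0571 (two-sided). Without sham replicate 6 it was 7.95 (unadjusted p = 0.00164) and DESeq2 then gave an adjusted p of 7.63e-04, and without scopolamine replicate 2 it was 2.65 (unadjusted p = 0.183). In limma-voom the log2 fold change of Fev was 5.14 (unadjusted p = 0.00455, adjusted p = 0.608).

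The other late and subtype factors had no common direction, and none passed the test. Isl1 had counts of 1, 13, 0 and 9 with scopolamine and 0, 1, 432 and 0 in sham. Sham replicate 7, one of the libraries made from 200 pg, held 90.7% of its summed level. The means were 0.271 ± 0.294 CPM with scopolamine and 2.70 ± 5.39 CPM in sham (SD, n = 4 each), a log2 fold change of -3.28 (standard error 2.25, edgeR Benjamini-Hochberg adjusted p = 0.739; exact permutation test, two-sided, p = 0.971). Without sham replicate 7 the sign turned, to 4.33 (edgeR, unadjusted p = 0.0455), so the direction for Isl1 rested on that mouse. DESeq2 gave Isl1 and Nkx2-2 no p because of single extreme counts.

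Pax6, a paired homeodomain factor that acts at hormone genes such as that of glucagon, was the most even of the late factors. Its counts were 7, 48, 26 and 7 with scopolamine and 9, 32, 75 and 13 in sham, above the floor in every library. In CPM it stood at 1.19 ± 0.991 with scopolamine and 0.847 ± 0.714 in sham (SD, n = 4 each; log2 fold change 0.48, standard error 1.06, edgeR Benjamini-Hochberg adjusted p = 0.972; exact permutation test, two-sided, p = 0.8). The difference was smaller than the spread between mice in either group.

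Nkx2-2, a homeodomain factor of hormone cell identity, had counts of 0, 43, 0 and 3 with scopolamine and 0, 4, 1 and 30 in sham. A single mouse of each group, scopolamine replicate 2 and sham replicate 8, carried most of it, and the groups overlapped. Its log2 fold change of 1.07 (standard error 1.90, edgeR Benjamini-Hochberg adjusted p = 0.954; exact permutation test, two-sided, p = 0.714) became -2.32 without scopolamine replicate 2 and 3.55 without sham replicate 8. Pax4, the paired homeodomain partner of Pax6 in endocrine development, had 7 counts in scopolamine replicate 2 (0.327 CPM) and 0 in the other 7 libraries. Its mean of 0.0816 CPM in the treated mice lay within the range of the floors, so no fold is given for Pax4.

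**Figure D2:**
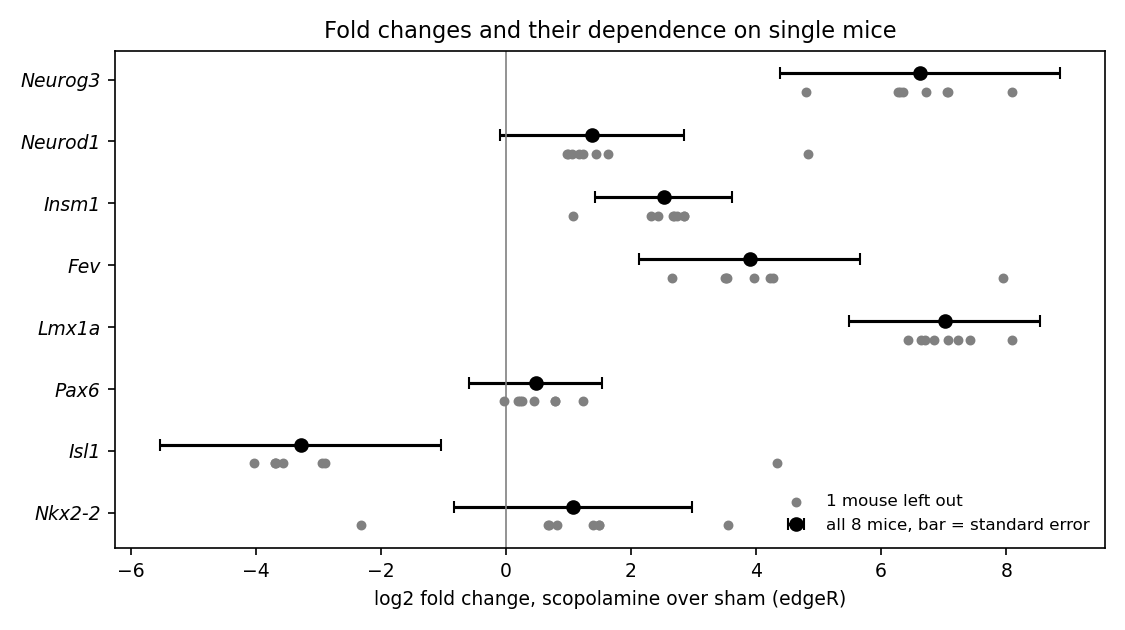
Log2 fold change of scopolamine over sham from edgeR for the 8 factors tested (black, all 8 mice, with the standard error) and after leaving out 1 mouse at a time (grey, 8 fits per gene). The points of Lmx1a, Neurog3, Fev, Insm1 and Neurod1 are positive in all 8 of these fits, while the grey points of Isl1, Nkx2-2 and Pax6 fall on both sides of 0. For Lmx1a (335 counts against 4 in sham) and Neurog3 (101 against 1), leaving out 1 mouse could not turn the sign.

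Set against each other, the early and the late factors kept nearly the same proportion in all treated mice. The early factors summed to 8.77, 15, 2.74 and 7.82 CPM in scopolamine replicates 1 to 4 and to 0.676, 0.764, 7.17 and 0.595 CPM in sham replicates 5 to 8. The late and subtype factors summed to 9.12, 17, 3.02 and 9.48 CPM with scopolamine and to 0.338, 1.87, 12.7 and 1.31 CPM in sham. In both sums sham replicate 7 overlapped the treated mice and the other sham mice lay below all of them. The early share of the total was 45.2% to 49% in the treated mice and 29% to 66.7% in sham. The ends of the sham range rest on few counts. The 66.7% came from replicate 5, with a total of 1.01 CPM led by 15 counts of Insm1, and the 29% from replicate 6, with 2.64 CPM. The difference between the 2 ranges was not tested. The mean was 8.59 ± 5.04 against 2.30 ± 3.25 CPM for the early and 9.66 ± 5.74 against 4.06 ± 5.81 CPM for the late sum (SD, n = 4 each). The early difference of 6.29 CPM was 4.14 CPM without scopolamine replicate 2, and the late difference of 5.60 CPM was 3.15 CPM without that mouse and 8.49 CPM without sham replicate 7. No test was made on sums over chosen genes.

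The libraries differed in how many of the factors they held and in which one was highest. The number of the 9 factors above the floor was 6, 9, 5 and 6 in scopolamine replicates 1 to 4 and 2, 5, 4 and 3 in sham replicates 5 to 8. After thinning to the smallest total of 14343362 counts it was 6, 9, 5 and 5 against 2, 4, 3 and 3. Scopolamine replicate 2 held all 9, with Fev the highest at 30% of the sum. In replicate 1 Lmx1a was highest (46.2%), and in replicates 3 and 4 it was Neurod1 (36.6% and 36.2%). In sham, Insm1 led in replicate 5, Fev in replicate 6, Isl1 in replicate 7 and Nkx2-2 in replicate 8, so each of the 4 sham mice had a different leading factor.

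**Figure D3:**
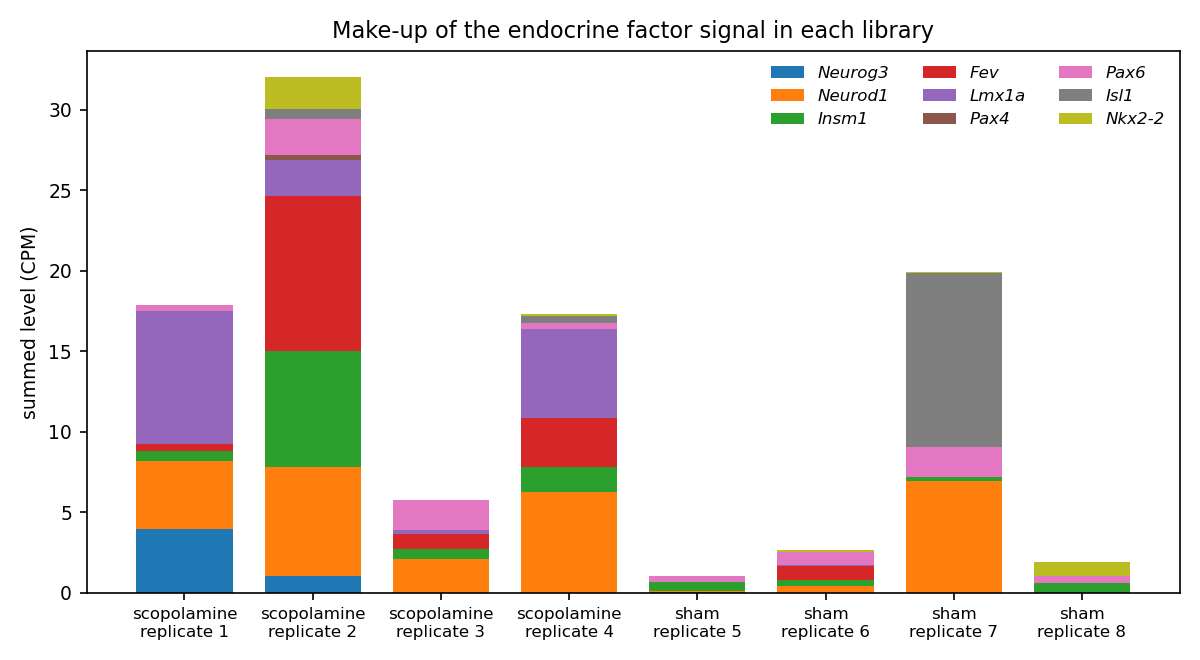
Summed level of the 9 factors in each library in CPM, with 1 colour per factor. The bars run from 1.01 CPM in sham replicate 5 to 32 CPM in scopolamine replicate 2, and the tall sham bar, replicate 7, is made up mostly of Isl1 and Neurod1 with no Lmx1a.

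The endocrine products, like the factors, had mostly positive log2 fold changes (21 positive and 4 negative) and differed widely between libraries. Of 26 hormones, granins and secretory pathway genes listed, 25 were tested, 7 of them were higher with scopolamine and 0 lower at an unadjusted p under 0.05, and none was called in edgeR (5 in DESeq2: Scg3, Ucn3, Iapp, Resp18 and Vwa5b2). Their median log2 fold change was 1.82. Their summed level was 531 to 1188 CPM with scopolamine and 203 to 1610 CPM in sham, and the highest sum was that of sham replicate 7. That library held 12122 counts of Nts, 10495 of Cck, 5405 of Gcg and 3453 of Pyy, the genes of neurotensin, cholecystokinin, proglucagon and peptide YY, beside its 432 counts of Isl1.

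The products of enterochromaffin cells were also present in sham libraries with Lmx1a at or below the floor. Tph1, the enzyme that begins serotonin synthesis, had 297, 1081, 8 and 481 counts with scopolamine and 0, 4, 732 and 12 in sham, and Tac1, the gene of substance P, had 725, 437, 0 and 853 and then 20, 1, 492 and 0. Sham replicate 7 held 732 counts of Tph1 and 492 of Tac1 with 0 of Lmx1a and 1 of Fev. Scopolamine replicate 3, which had 4 counts of Lmx1a and 8 of Tph1, held 810 of Gip, the hormone of K cells. In sham replicate 8, where Nkx2-2 led, Gip had 611 counts and Sst, the gene of somatostatin, 292.

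**Figure D4:**
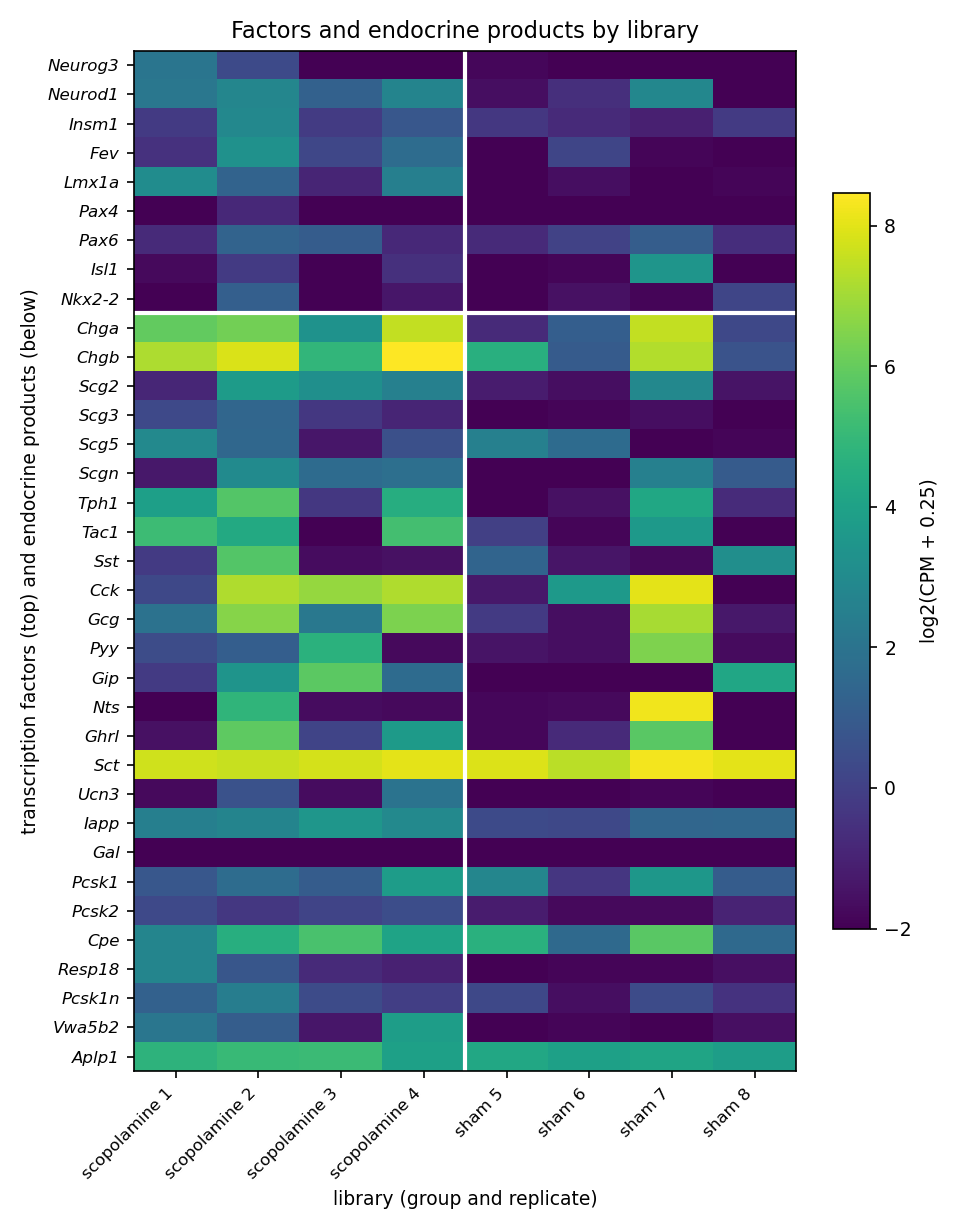
Level of the 9 factors (above the white line) and of 26 endocrine products (below it) in the 8 libraries as log2(CPM + 0.25), scopolamine left of the vertical line and sham right of it. Sham replicate 7 holds Nts, Cck, Gcg, Pyy, Tph1 and Isl1 but no Lmx1a, and Sct is high in all 8 libraries.

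For the 7 factors above the floor in at least 3 libraries, which leaves out Neurog3 and Pax4, the genes most alike over the 8 libraries were sought among 13432 genes with at least 100 counts, by Pearson's r of log2(CPM + 0.25), as a description over libraries that share their depth differences. For Neurod1 they were Cd1d1 (r = 0.975), Chga (r = 0.974), the granin of endocrine vesicles, and Nrm (r = 0.947). For Lmx1a they were Slc36a4 (r = 0.977), S100a14 (r = 0.96) and Vwa5b2 (r = 0.956). Fev went with Lefty1 (r = 0.986), Xpr1 and Acat1, and Insm1 with Steap2 (r = 0.987), Ercc2 and Akr1c12. Isl1 went with Art2a (r = 0.986), Thbs1 and Wfdc1, Nkx2-2 with Tgfb3 (r = 0.977), Cenpp and Bard1, and Pax6 with Pcdhga10 (r = 0.983), Gja5 and Pcdh1. The 3 genes differed for each of the 7 factors, and between 11 and 63 genes per factor reached an r of 0.9. Between these 7 factors, r was highest for Insm1 and Fev (0.847) and lowest for Lmx1a and Pax6 (-0.208).

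Other regulators of the endocrine lineage, a list of 26 genes, showed no common direction. Of the 22 tested, 13 had a positive and 9 a negative log2 fold change (median 0.29), 3 were higher and 1 lower with scopolamine at an unadjusted p under 0.05, and none was called in edgeR and 1 in DESeq2 (Nkx6-3). Nkx6-3, a homeodomain factor best known from the stomach, had 19, 30, 0 and 152 counts with scopolamine and 0 in all sham mice. Hnf4g, an enterocyte nuclear receptor, stood at 47.8 ± 25.1 CPM with scopolamine and 21.8 ± 5.87 CPM in sham (log2 fold change 1.13, edgeR unadjusted p = 0.0167). Sox4, active in early endocrine and tuft progenitors, was lower at 105 against 149.7 CPM (log2 fold change -0.52, edgeR unadjusted p = 0.0236).

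The remaining regulators that differed at least 3-fold in mean level had an unadjusted p over 0.05 in edgeR or too few counts to be tested. Rfx6, a factor downstream of Neurog3, had 46 counts in sham replicate 5 and at most 2 elsewhere. Mnx1 had 0, 3, 2 and 59 counts with scopolamine and 0, 101, 270 and 150 in sham, and Etv1 had 10, 60, 0 and 69 and then 1, 4, 41 and 1. Hhex, a factor of somatostatin cells, had 41 counts in sham replicate 6 and at most 7 elsewhere, and Myt1 had 16 in scopolamine replicate 1 and at most 3 elsewhere. Pou3f4, Egr3 and Neurog2 had at most 9 counts in any library. Prox1, a gene of endocrine and tuft cells, was at 35.5 against 29.4 CPM (edgeR unadjusted p = 0.509), and Insm2 had no count in any library.

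Markers of other cell types were examined beside the endocrine factors, and edgeR called none of them. All 18 enterocyte markers had a positive log2 fold change (median 1.56, 8 of them higher at an unadjusted p under 0.05, and Slc5a1 and Anpep called by DESeq2 with adjusted p of 0.00232 and 0.0297), with summed levels of 3463 to 7571 CPM with scopolamine and 2655 to 6848 CPM in sham. Of 14 goblet and Paneth markers 13 were positive (median 1.5, 3 higher at an unadjusted p under 0.05), with sums of 734 to 3621 CPM and 397 to 1468 CPM. Of 20 tuft markers 17 were negative (median -0.15, 0 at an unadjusted p under 0.05). The 5 stem cell markers were all negative, with sums of 98.4 to 217.8 CPM and 158 to 216 CPM. Of 6 lymphocyte markers 5 were positive, with sums of 42.8 to 178 CPM and 54.7 to 225 CPM. Of 6 markers of neurons and enteric glia, Sox10 had no count and the sums were 2.38 to 5.21 CPM and 3.13 to 4.57 CPM. In scopolamine replicate 2, the mouse with all 9 factors, enterocyte markers summed to 7571 CPM and tuft markers to 38840 CPM, the highest and the next to lowest of the 8 libraries. Sham replicate 7 had 2820 CPM of enterocyte and 55786 CPM of tuft markers. The part of other cell types, depth and RNA input in the differences of the endocrine factors was not tested.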

How the data were processed

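Estimated counts per gene were deposited by the authors without normalization, from bcl2fastq 2.20, pseudoalignment to the GRCm38 transcriptome with kallisto 0.44.0 and tximport; the annotation release and use of strand are not stated. Rounding to whole numbers changed 0 values. RNA input and cycles came from the study's source data. Coordinates and exon lengths are from GENCODE M21.

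The 2 groups were tested in edgeR 4.0.16 by quasi-likelihood (TMM factors, at least 10 counts summed over 8 libraries, Benjamini-Hochberg over 17678 genes) in R 4.3.3, with DESeq2 1.42.0 and limma 3.58.1 (voom) as alternatives. The edgeR and DESeq2 tests were also run on simulated counts. The genes changed there had higher counts than Neurog3, Pax4 and Nkx2-2, and the outcome is not reported here. Single genes were compared by exact permutation of log2(CPM + 0.25). No 2 libraries of a group agreed within sampling noise (smallest chi-square per degree of freedom 67.5). The samples are separate mice.

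The members, gene lists, tests and alternatives were chosen with earlier results of these data known. All 9 members were named. Other regulators were named at an unadjusted p under 0.05 or a 3-fold mean difference, and Prox1, Insm2 and the endocrine products after their values were seen. Some genes of the lists are not reported here by name.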

Additional observations from a re-analysis of the deposited data

Results flagged for a closer look

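In each group of 4 libraries, the highest and the lowest value of each factor was compared with its nearest neighbour, and a value was set apart when this gap exceeded Dixon's 95% critical value for 4 samples, as a share of the group's range (which chance passes in about 1 in 20 groups). Of 18 groups, 8 held such a value, in each case the highest, where the other libraries were often at or near 0. Pax4 was 0 in all 4 sham libraries, so that group could not hold such a value.

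Sham replicate 7 stood apart for Isl1 (10.8 CPM, next 0.0246) and Neurod1 (6.95 CPM, next 0.419), sham replicate 6 for Fev (0.887 CPM, next 0.025), sham replicate 8 for Nkx2-2 (0.893 CPM, next 0.0985) and sham replicate 5 for Neurog3 (0.0376 CPM, which is 1 count). Scopolamine replicate 2 stood apart for Insm1 (7.18 CPM, next 1.56), Nkx2-2 (2.01 CPM, next 0.142) and Pax4 (0.327 CPM, which is 7 counts). Lmx1a and Pax6 had no such library in either group.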

How the results depend on the processing

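Over all genes, edgeR's quasi-likelihood test called 0, against 136 with DESeq2, 61 with edgeR's likelihood ratio test, 9 without the 2 low-input sham libraries, 5 with amplification cycles as a covariate and 0 to 2 with each replicate left out. Of the endocrine factors, 0 were called in edgeR, and 1 (Lmx1a) with DESeq2 and with the likelihood ratio test. The 3 factors higher at an unadjusted p under 0.05 (5.5% of all genes) became 5 without a filter (5.54%), 1 with the mouse ID letter in the fit (3.9%) and 2 to 4 with each replicate left out (3.67% to 6.03%). Those added without a filter were Fev and Pax4, and all 7 counts of Pax4 came from scopolamine replicate 2. DESeq2's 1 call became 2 without the low-input libraries, where Neurod1 was added and calls over all genes were 562 of 17048, and 1 to 2 with each replicate left out, where calls over all genes ran from 43 to 611. The 2 factors with groups that did not overlap, both higher with scopolamine (1.68% of all genes), became 1 with thinned counts (1.7%) and 2 to 3 with each replicate left out (2.61% to 4.43%, where groups of 4 and 3 separate more easily). The log2 fold change of Isl1 was reversed with limma-voom (0.67), without the low-input libraries (3.96), and with cycles (3.99) or the mouse ID letter (0.071) in the fit. With each replicate left out it ran from -4.03 to 4.33 (without sham replicate 7), that of Pax6 from -0.034 (without scopolamine replicate 2) to 1.23, and that of Nkx2-2 from -2.32 (without scopolamine replicate 2) to 3.55. The difference in mean log2(CPM + 0.25) without the low-input libraries was 0.80 for Isl1 and -0.38 for Nkx2-2, also reversed, where 4 against 2 mice allow no p below 0.0667. The causes were not tested. Lmx1a kept its direction in the 19 alternative fits that kept it (filterByExpr dropped it), with log2 fold changes from 6.15 to 8.10 and adjusted p from 1.41e-04 to 0.853. With 335 counts against 4 in sham, its sign had little room to turn in these fits. No paired analysis was possible because the replicate numbers of the groups are not shared. Depth was lowest in the treated mice, and whether depth or RNA input limits genes with a few counts per library was not tested.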
